A study of Mus musculus with 4 samples.

Results

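Galectins are small proteins that bind glycans ending in or carrying galactose, and 5 of their genes, Lgals1, Lgals3, Lgals7, Lgals8 and Lgals9, were followed through 4 RNA-seq libraries of mouse mammary tumor cells. The 5 genes were looked up by name among the 21090 genes of the deposited values, and the family was picked on a measured value, because Lgals1 had the highest RPKM of all genes in both control libraries. That level, and every difference that rests on it, is therefore given for Lgals1 as a description without a test. By the study's account the lines descend from a C57BL/6 mouse with the Pik3ca H1047R and Trp53 R270H alleles and MMTV-Cre, in which the mouse mammary tumor virus promoter drives Cre, and the mammary tumor they were grown from had spread to the lung. The controls (n = 2) were the parental cells and the vector control, here the vector line. The knockouts (n = 2) had received a lentivirus carrying Cas9 and a guide RNA against S100a4, aimed at exon 3 in the exon 3 line and at exon 2 in the exon 2 line, and infected cells were selected with puromycin. Each line gave 1 library, so the spread within a group is a spread between lines. The cell number in the titles is 307 except for the exon 2 line, which has 308, so the edited exon and a possible difference in starting cells cannot be told apart between the knockouts. Whether the lines are single clones is not given in the sources used here.

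Galectins are made in the cytosol and leave the cell without a signal peptide, after which they can cross-link glycoproteins at the surface and in the matrix. Prototype galectins such as galectin-1 and galectin-7 have a single carbohydrate-binding domain and pair up, galectin-3 joins such a domain to a long tail that lets it form clusters, and the tandem-repeat galectins galectin-8 and galectin-9 carry a pair of different domains on the same chain. In tumors galectin-1 and galectin-3 are known for roles in adhesion, migration and the silencing of T cells, and inside cells galectin-3 and galectin-8 gather on damaged endosomes and lysosomes whose inner glycans have become exposed.

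The feature that the 5 genes share is the galactose-binding site, and the coding DNA for it is shown because it tells the single-domain from the tandem-repeat members. Each sequence below is from the longest coding transcript in GENCODE M21 (GRCm38), reads 5′ to 3′ on the coding strand and lies within 1 coding exon. Capitals mark the codons at either end that hold the histidine, asparagine, arginine, tryptophan and glutamate known to contact galactose.
Lgals1 (chr15:78929676-78929759, plus strand): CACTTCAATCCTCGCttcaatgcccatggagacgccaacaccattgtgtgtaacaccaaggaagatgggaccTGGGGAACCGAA
Lgals3 (chr14:47384642-47384722, plus strand): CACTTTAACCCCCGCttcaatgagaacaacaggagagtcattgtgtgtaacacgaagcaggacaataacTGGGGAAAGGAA
Lgals7 (chr7:28865586-28865657, plus strand): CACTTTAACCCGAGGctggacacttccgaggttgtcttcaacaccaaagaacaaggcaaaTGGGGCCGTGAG
Lgals8, first domain (chr13:12454813-12454887, minus strand): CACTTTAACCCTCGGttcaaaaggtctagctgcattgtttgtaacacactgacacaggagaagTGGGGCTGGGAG
Lgals8, second domain (chr13:12447195-12447266, minus strand): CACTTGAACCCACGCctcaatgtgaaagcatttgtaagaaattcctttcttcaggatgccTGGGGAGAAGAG
Lgals9, first domain (chr11:78973066-78973140, minus strand): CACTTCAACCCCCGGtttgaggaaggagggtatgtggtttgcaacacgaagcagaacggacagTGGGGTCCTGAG
Lgals9, second domain (chr11:78965743-78965814, minus strand): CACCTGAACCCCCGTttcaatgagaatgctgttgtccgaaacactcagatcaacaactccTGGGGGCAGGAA
The site was found 1 time in Lgals1, Lgals3 and Lgals7 and 2 times in Lgals8 and Lgals9. Of the 27 bases in capitals, 22 were the same in Lgals3 as in Lgals1, against 17 in Lgals7, 19 and 20 in Lgals8 and 20 and 18 in Lgals9. Over whole coding sequences the longest identical stretch between any of the 5 genes and another galectin gene was 17 bases.

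The libraries were sorted out first by the edited gene and by cell markers. S100a4 RPKM (reads divided by gene length in kilobases and by the library total) was 3576 in the parental cells and 4741 in the vector line, against 1136 in the exon 3 and 1105 in the exon 2 line. Between 14612099 and 20411723 reads per library fell in genes. Vim, a mesenchymal filament gene, lay between 1362 and 2418 RPKM, and 10 of 10 mesenchymal markers had mean RPKM of at least 1. Only 2 of 7 luminal epithelial markers, Krt8 and Krt18, did so, and Epcam stayed at or below 0.657 RPKM, and Epcam, the adhesion molecule of epithelium, is named after its values were seen, as are both keratins and, below, Fth1. Of the mesenchymal markers 0 passed limma and 4 of 10 had both knockouts below both controls, as did 31.2% of all tested genes. Among these 4 the largest changes were in Zeb2 (log2 change -1.21, SE 0.35, adjusted p 0.138 in limma) and Twist1 (-0.63, adjusted p 0.288 in limma), both transcription factors of the mesenchymal state. Col1a1, named after its values were seen, changed by -0.97, but its groups overlapped, with 670 RPKM in the parental cells and 6.93 in the vector line. Of the tested luminal and keratinocyte markers 0 passed limma. In RNA from whole cultures, fewer cells of a type and less RNA per cell cannot be told apart.

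Lgals1, which encodes galectin-1 (chromosome 15 from 78926725 to 78930465, GRCm38), stood far above the other members in all 4 libraries. Its RPKM was 9171 in the parental cells (95% Wilson interval 9119 to 9223), 12171 in the vector line (12104 to 12238), 13874 in the exon 3 line (13799 to 13948) and 8283 in the exon 2 line (8224 to 8342). The highest and the lowest level were thus both in knockouts, with the controls between them. The controls averaged 10671 ± 2121 and the knockouts 11078 ± 3953 RPKM (SD, n = 2 each), a difference of 0.02 on the log2(RPKM + 1) scale that was far smaller than the spread within either group. Lgals1 ranked 1 of all genes in both controls, where its level chose it, and 2 in both knockouts, behind the ferritin heavy chain gene Fth1 at 19957 and 10283 RPKM. Lgals1 alone made up 1.92% of all RPKM in the parental cells, 2.27% in the vector line, 2.43% in the exon 3 and 1.54% in the exon 2 line.

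**Figure D1:**
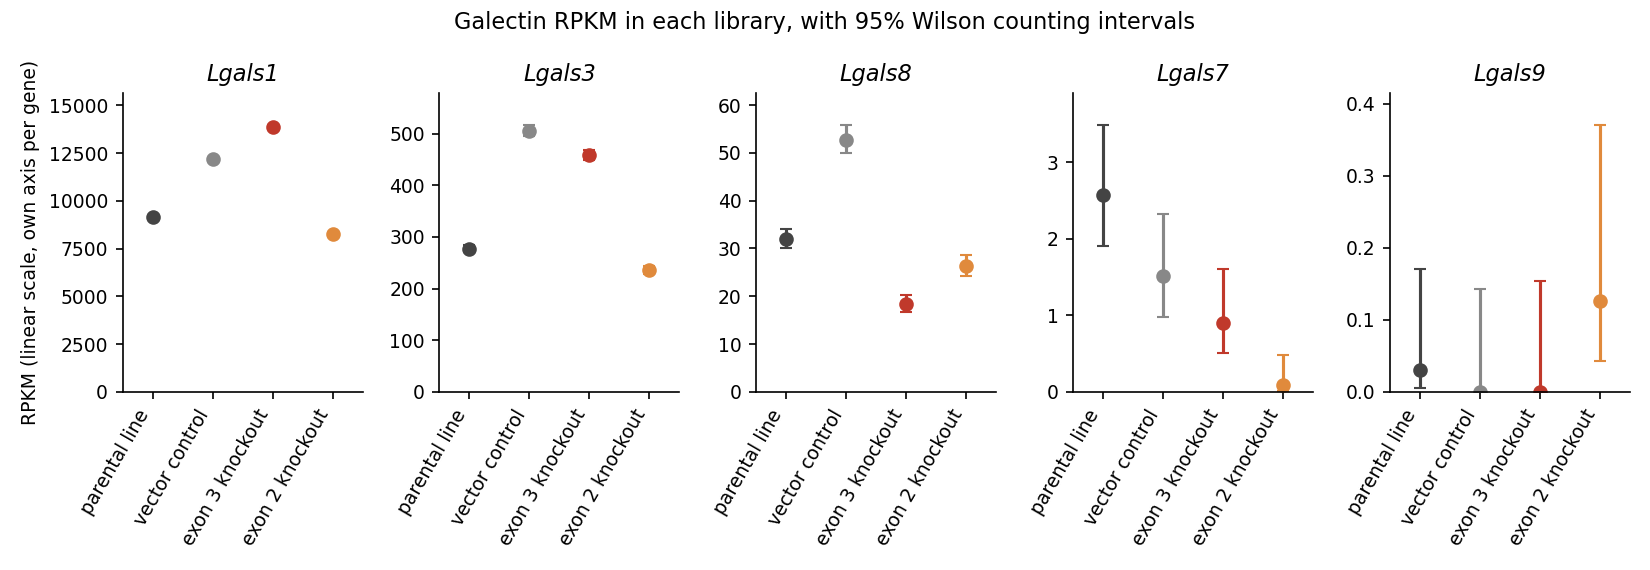
RPKM of the 5 galectin genes (linear y axis, a separate one for each gene) in the 4 libraries, each point 1 library with its 95% Wilson interval, which covers counting error only. Lgals1 and Lgals3 were higher in the vector line and exon 3 line than in the parental cells and exon 2 line, Lgals8 and Lgals7 were lower in both knockouts, and Lgals9 was at 0 to 3 reads.

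The split of Lgals1 between the edited lines was larger than the difference between the controls. The exon 3 line had 1.51 times the RPKM of the parental cells (counting interval 1.501 to 1.525) and 1.14 times that of the vector line (1.13 to 1.15). The exon 2 line had 0.903 times (0.895 to 0.911) and 0.68 times (0.674 to 0.687) the same controls. Of the 10871 genes tested, 3.95% were above both controls in the exon 3 and below both in the exon 2 line, a share counted for an order first seen in Lgals1 and from which nothing is read about it. Lgals1 kept this order after median ratio scaling. After correction for GC content and length the exon 3 line lay between the controls, and after quantile normalization both knockouts lay below both controls.

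Lgals3, the gene for galectin-3 (chromosome 14 from 47367751 to 47386160), was the second galectin by level and split the libraries much as Lgals1 did. Its RPKM was 277 in the parental cells, 506 in the vector line, 458 in the exon 3 line and 236 in the exon 2 line. The vector line and exon 3 line were high and the parental cells and exon 2 line low, so the groups overlapped. Between the controls Lgals3 differed 1.83-fold (counting interval 1.77 to 1.88) and between the knockouts 1.94-fold, against a ratio of 0.886 between the group means (391.6 ± 162 in the controls and 347 ± 157 in the knockouts, SD, n = 2 each). The log2 change between groups was -0.19 (SE 0.395, adjusted p 0.82 in limma), and it turned to 0.24 without the vector line and 0.29 without the exon 2 line. Lgals3 is also a macrophage marker under the name Mac-2. Of the 9 other macrophage and monocyte markers present, 2 had mean RPKM of at least 1 and 2 were at 0 in all libraries, and their summed RPKM was 14.4 in the parental cells, 38.4 in the vector line, 20.8 in the exon 3 and 20.97 in the exon 2 line. The leukocyte gene Ptprc had at most 0.0101 RPKM. The 2 markers above the filter were Cd14, a receptor for lipopolysaccharide (9.42 and 34.5 RPKM in the parental cells and vector line, 8.74 and 7.15 in the exon 3 and exon 2 lines), and Cd68, a lysosomal glycoprotein (4.92, 3.36, 11.5 and 13.2 RPKM in the same order).

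Lgals8 was the member with appreciable reads whose groups did not overlap. It encodes galectin-8 (chromosome 13 from 12439415 to 12464944, minus strand), the galectin that marks damaged vesicles for autophagy. Its RPKM was 32.0 in the parental cells (978 reads), 52.8 in the vector line (1312 reads), 18.3 in the exon 3 line (421 reads) and 26.3 in the exon 2 line (579 reads). Both knockouts lay below both controls, as did 31.2% of all tested genes. The ratios ran from 0.347 (exon 3 line over vector line) to 0.823 (exon 2 line over parental cells, counting interval 0.741 to 0.913). The mean was 42.4 ± 14.7 in the controls and 22.3 ± 5.66 in the knockouts (SD, n = 2 each). The log2 change was -0.87 (SE 0.348), with an unadjusted p of 0.0282 and an adjusted p of 0.215 in limma. An unadjusted p under 0.05 was found in limma for 19.1% of all tested genes. The vector line was 1.65 times the parental cells (counting interval 1.52 to 1.79), so the controls differed from each other by nearly as much as the groups did. Without the parental cells the change was -1.23 with an adjusted p of 0.0335 in limma, a fit in which the vector line is the only control and is assumed to vary as the 2 knockouts do, and without the vector line it was -0.52 with an adjusted p of 0.49.

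Lgals7 and Lgals9 had few reads in these libraries. Lgals7 (chromosome 7 from 28863853 to 28866284), a galectin known from stratified epithelium and as a target of p53, had 42 reads (2.58 RPKM) in the parental cells, 20 reads (1.51 RPKM) in the vector line, 11 reads (0.898 RPKM) in the exon 3 line and 1 read (0.0852 RPKM) in the exon 2 line. Both knockouts were below both controls, as were 31.2% of all tested genes. But the exon 3 line was 0.595 times the vector line (counting interval 0.258 to 1.30). That pair did not differ beyond counting error. The exon 2 line was 0.0331 times the parental cells (0.000819 to 0.195) and 0.0565 times the vector line (0.00136 to 0.353). The log2 change between groups was -1.06 (SE 0.432, unadjusted p 0.0314, adjusted p 0.222 in limma) with a pseudocount of 1 and -2.27 with a pseudocount of 0.1. Among 10 squamous and basal keratinocyte markers, 2 had mean RPKM of at least 1, and their summed RPKM was 2.22 and 3.97 in the parental cells and vector line and 3.28 and 5.38 in the exon 3 and exon 2 lines. Of the sum in the exon 2 line, 3.13 RPKM came from the adhesion gene Perp alone, which is named after its values were seen and had at most 0.293 RPKM elsewhere.

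Lgals9 (chromosome 11 from 78962974 to 78984946, minus strand), a tandem-repeat galectin known as a ligand of the T cell receptor protein Tim-3 and as an interferon-induced gene, had 1 read in the parental cells, 0 in the vector line, 0 in the exon 3 line and 3 in the exon 2 line. A count of 0 allows up to 0.111 RPKM in the vector line and 0.12 RPKM in the exon 3 line. It was the 1 member under the mean RPKM filter and no difference was detectable at this depth. The 8 interferon-stimulated genes listed beside it had a summed RPKM of 899 in the parental cells, 2635 in the vector line, 910 in the exon 3 and 1149 in the exon 2 line. Of these 8, 0 passed limma, 3 had an unadjusted p under 0.05 (19.1% of all tested genes), and 2 had both knockouts below both controls (31.2% of all tested genes). Among these was Ifit1, an antiviral RNA-binding protein (log2 change -1.57, SE 0.503, adjusted p 0.1595 in limma). T cell markers, for the cells on which galectin-9 acts, were at 0 in all libraries for 5 of 6 genes, as were 5685 of all 21090 genes. The remaining marker, Lck, is named after its values were seen and had between 0.471 and 1.13 RPKM.

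**Figure D2:**
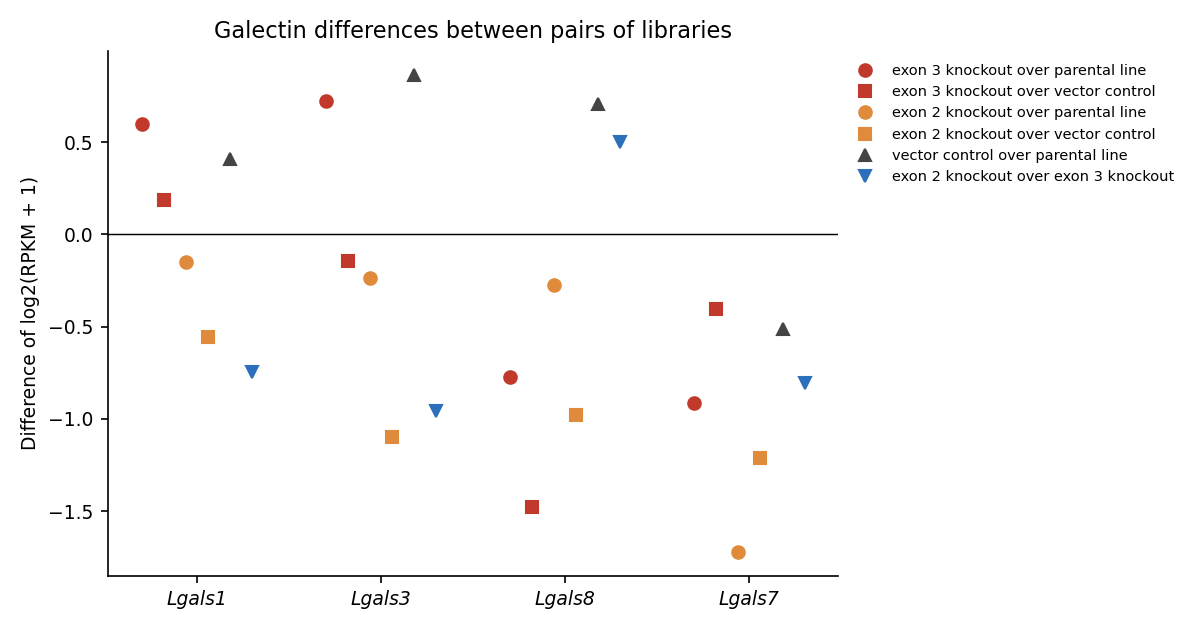
Difference of log2(RPKM + 1) (y axis) for 4 galectin genes (x axis) in the 4 pairs of a knockout with a control, and between the lines of each group (triangles). All 4 pairs were below 0 for Lgals8 and Lgals7 and on both sides of 0 for Lgals1 and Lgals3, and for Lgals3 the vector line was 0.87 above the parental cells.

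Set against all tested genes, no galectin was called at the adjusted threshold, where almost no gene was. limma called 2 of 10871 genes (0.0184%) at an adjusted p under 0.05, of which 0 were galectins. With so few calls, that 0 tells little about the galectins. In limma 19.1% of all tested genes had an unadjusted p under 0.05. Lgals8 (0.0282) and Lgals7 (0.0314) were under it and Lgals3 (0.642) was not. Of the 4 members with mean RPKM of at least 1, 2 had both knockouts below both controls, as did 31.2% of all tested genes, and 0 had both knockouts above both controls, as did 21.9%. No member reached a 2-fold difference in log2(RPKM + 1) between the vector line and the parental cells, where 8.53% of tested genes did, or between the exon 2 and exon 3 lines, where 4.99% did. In RPKM, without the pseudocount, Lgals7 was 0.095 times as high in the exon 2 as in the exon 3 line, on 1 and 11 reads. The exact permutation test cannot go below a two-sided p of 0.333 with 2 libraries against 2, and it gave that value for Lgals8 and Lgals7.

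The median change of tested genes differed with base composition. Genes with a GC content within 1 percentage point of that of Lgals8 (46.9%) had a median log2 change of -0.46 (897 genes), and those around Lgals3 (57.0%) had 0.18 (1256 genes). The median was 0.12 around Lgals1 (55.1%) and 0.22 around Lgals7 (59.6%). Lgals3 (-0.19) and Lgals7 (-1.06) themselves changed in the direction opposite to these medians. After correction of each library for GC content and length, the change was -0.54 for Lgals8 (SE 0.258, adjusted p 0.415 in limma), -0.48 for Lgals3 (SE 0.361, adjusted p 0.584) and -1.48 for Lgals7 (SE 0.405, adjusted p 0.303). Lgals8 and Lgals7 still had both knockouts below both controls. For Lgals1, without a test, the difference went from 0.02 to -0.32. What part base composition has in these values was not tested further.

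**Figure D3:**
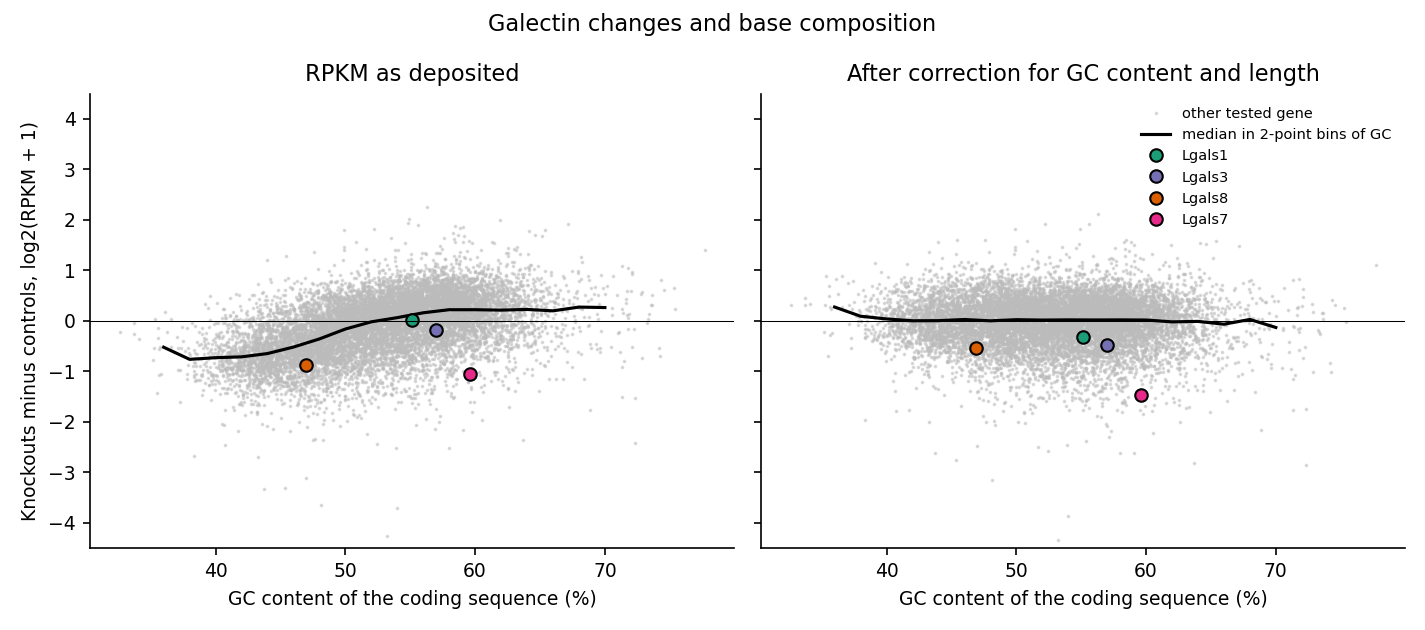
Knockouts minus controls on the log2(RPKM + 1) scale (y axis) against the GC content of the coding sequence in % (x axis), with RPKM as deposited on the left and after correction on the right. Grey points are tested genes, the black line is their median in bins of GC content, and the colored points are the 4 galectins, of which Lgals8 lay among genes of low GC content at -0.87 before and -0.54 after correction.

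The makeup of the galectin pool was next compared within each library. This sets aside a single scale factor per library, but not effects of GC content or length. Of the summed RPKM of 8 galectin genes (the 5 members with Lgals2, Lgals4 and Lgals12), Lgals1 made up 96.7% in the parental cells, 95.6% in the vector line, 96.7% in the exon 3 and 96.9% in the exon 2 line. Lgals3 followed with 2.92%, 3.97%, 3.19% and 2.76% in the same order. The ratio of Lgals1 to Lgals3 was 33.1, 24.1, 30.3 and 35.2, with the vector line lowest. The ratio of Lgals3 to Lgals8 was 8.66 in the parental cells, 9.58 in the vector line and 8.94 in the exon 2 line, but 24.98 in the exon 3 line, which combined a high Lgals3 with the lowest Lgals8.

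Other galectin and galectin-like genes were low, apart from Lgals3bp and Lgalsl. Lgals3bp encodes a secreted glycoprotein that galectin-3 binds. Its RPKM was 187 in the parental cells, 332 in the vector line, 171 in the exon 3 and 182 in the exon 2 line. Both knockouts were below both controls (log2 change -0.49, SE 0.334, adjusted p 0.431 in limma), but the exon 2 line was 0.974 times the parental cells with a counting interval of 0.945 to 1.004. Lgalsl, a galectin-related gene, had 56.9 RPKM in the parental cells and between 22.9 and 30.7 RPKM in the other libraries, so the parental cells alone was high. Lgals2, a prototype galectin, was at 1.63 and 1.30 RPKM in the parental cells and vector line and 1.19 and 0.453 RPKM in the exon 3 and exon 2 lines, on at most 20 reads. Lgals4, a tandem-repeat galectin of the gut, was at 1.11 to 2.35 RPKM. Lgals12 was at 0.134 RPKM in the exon 3 line and Grifin, a galectin-like lens gene, at 0.205 RPKM in the exon 2 line, and both were listed at 0 elsewhere. Of the 7 listed genes 4 were tested and 0 passed limma, which 0.0184% of all tested genes passed. Both knockouts were below both controls for 2 of these 4 (31.2% of all tested genes) and above for 0 (21.9%). The median log2 change was -0.48 against -0.08 for all tested genes, and it rests on only these 4 genes. Lgals6, a close copy of Lgals4 carried by some strains, was not analysed here.

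Galectins need glycans to bind, so enzymes that build and cap their ligands were examined. Of 22 enzymes that branch N-glycans or extend them with N-acetyllactosamine, 20 were tested and 0 passed limma. Both knockouts were below both controls for 7 of these 20, beside 31.2% of all tested genes, and above for 1, beside 21.9%, with a median log2 change of -0.11 against -0.08 for all tested genes. Man2a1, the Golgi mannosidase that opens the way to complex glycans, had 72.1 and 27.3 RPKM in the parental cells and vector line and 12.6 and 16.4 RPKM in the exon 3 and exon 2 lines (log2 change -1.56, SE 0.422, adjusted p 0.128 in limma). Mgat4b, which adds a branch to the glycan core, had 67.6 and 78.2 RPKM in the controls and 154 and 136 RPKM in the knockouts in the same order (log2 change 0.98, SE 0.292, adjusted p 0.14 in limma). Of 8 sialyltransferases, which cap galactose and in the case of St6gal1 block galectin-1, 6 were tested and 0 passed limma, with a median of -0.10. Both knockouts were below both controls for 2 of these 6 (31.2% of all tested genes) and above for 0 (21.9%). These 2 were St3gal5 (log2 change -0.40, SE 0.315) and St6gal1 (-0.30, SE 0.324), with adjusted p of 0.501 and 0.624 in limma.

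Glycoproteins that galectins are known to bind lay on both sides. Of 26 listed genes 22 were tested, of which 0 passed limma and 7 had an unadjusted p under 0.05 (19.1% of all tested genes). Both knockouts were below both controls for 9 (31.2% of all tested genes) and above for 6 (21.9%), with a median log2 change of -0.43. This median was 0.14 after correction for GC content and length and 0.28 without the parental cells, so its sign depends on the processing and on that library. Pdpn, podoplanin, a mucin-like protein that galectin-8 binds, had 33.0 RPKM in the parental cells, 3.34 in the vector line, 1.48 in the exon 3 and 2.74 in the exon 2 line (log2 change -2.00, SE 0.72, adjusted p 0.188 in limma). The parental cells alone was high for Pdpn. Nrp1, neuropilin-1, a receptor that galectin-1 binds, had 3.99, 10.7, 1.69 and 0.912 RPKM in the same order (log2 change -1.75, SE 0.447, adjusted p 0.116 in limma), and for it the vector line was highest.

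Among 11 genes that work with galectins on damaged lysosomes, 9 were tested, 0 passed limma, 3 had both knockouts below both controls (31.2% of all tested genes) and 2 above (21.9%), with a median log2 change of -0.15. Tax1bp1, an autophagy receptor, had 31.6, 45.0, 13.6 and 27.5 RPKM in the parental cells, vector line, exon 3 and exon 2 lines (log2 change -0.93, SE 0.375, adjusted p 0.22 in limma). Tbk1, a kinase that acts on such receptors, had 11.4, 24.2, 7.29 and 11.2 RPKM in the same order (log2 change -0.82, SE 0.396, adjusted p 0.287 in limma). Like Lgals8, both were highest in the vector line and lowest in the exon 3 line. The share of all tested genes with this order was not counted, and nothing is read from it. Other genes of the list had another order and are named after their values were seen. Sqstm1 (947 RPKM), Ubxn6 (92.8 RPKM) and Tfeb (10.1 RPKM) were highest in the exon 3 line. After correction for GC content and length the change of Tax1bp1 was -0.17. Calcoco2, another autophagy receptor of the list, had at most 0.0951 RPKM and is named here after its values were seen.

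**Figure D4:**
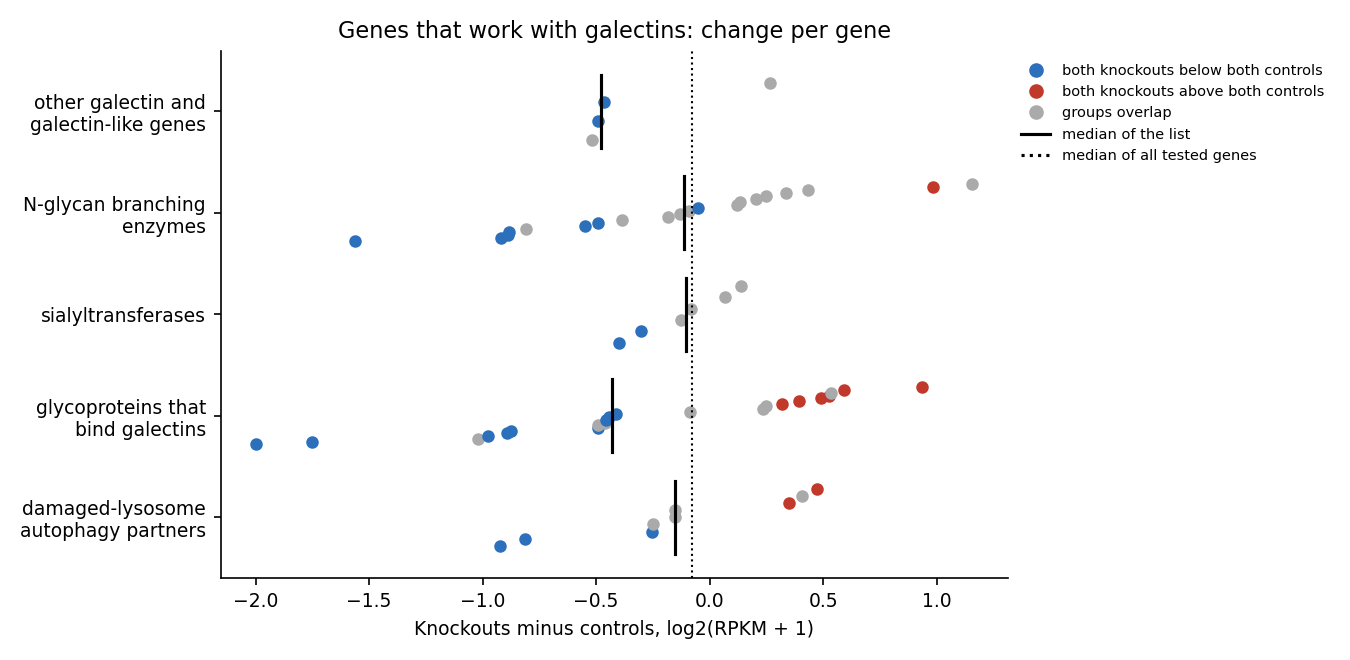
Log2 change, knockouts minus controls (x axis), of each tested gene (1 point) in 5 lists of genes that work with galectins (y axis). Blue and red mark genes with both knockouts below or above both controls, grey the rest, the bar is the median of the list (-0.48, -0.11, -0.10, -0.43 and -0.15 from top to bottom) and the dotted line the median of all tested genes (-0.08).

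Genes whose profile over the 4 libraries was nearest to each member were found by the root mean square difference of centred log2(RPKM + 1), among the 6953 tested genes that averaged 10 RPKM or more. The nearest of so many genes over only 4 libraries have small differences by selection, so nothing is read from their size. For Lgals1 these genes were Mpc2 (a pyruvate carrier subunit of mitochondria, difference 0.02), Alg5 (a glucosyltransferase of the glycan precursor, 0.03) and Cox16 (a cytochrome oxidase assembly factor, 0.03), where the median over the 6953 genes was 0.41. For Lgals3 they included Pdf (0.04) and the proteasome subunit gene Psmb4 (0.04). For Lgals8 they were Nuf2, a kinetochore gene (0.02), Smim15 (0.05) and Mdm2, the ubiquitin ligase of p53 (0.05). For Lgals7, whose profile has 1 read in the exon 2 line, they were Ndrg2 (0.09), the fatty acid synthase gene Fasn (0.10) and Tram2 (0.12).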

How the data were processed

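RNA from 4 mouse mammary tumor cell lines was sequenced, and the authors deposited 1 table of RPKM values for 21090 genes, with no log scale. Per the labels, GRCm38, GSNAP and CASAVA 1.8 were used, and a stranded total RNA kit is named. The counting rule is not given in the sources used here. Groups were taken from sample titles. Replicate numbers follow accession order and pair nothing, and p-values measure only the spread between lines. All 4 columns were matched to a library (0 unmatched).

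Whole reads were recovered from ratios between libraries (tolerance 0.001 reads, 100% of genes above 0). Their scale rests on GENCODE M21 coding lengths, which the length behind RPKM equalled for 59.8% of these genes. For the others the smallest multiple that gave a whole length was used, so their reads may be too low. The length behind RPKM was 795 bases for Lgals3, 978 for Lgals8 and 1062 for Lgals9, equal to their annotated coding bases. It was 408 for Lgals1, the coding length of its 135-residue transcript (427 over all transcripts), and 522 for Lgals7, where the annotation has 411. Library totals ran from 22472024 to 31235456. Intervals (95% Wilson, or exact binomial for ratios) and the limit for 0 reads (3 reads) cover counting error only. GENCODE M21 held 99.5% of the gene symbols, some under a newer name given by RefSeq.

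Genes with mean RPKM of at least 1 (10871) were tested on log2(RPKM + 1), which understates changes of low genes, with limma 3.58.1 in R 4.3.3 (intensity trend, knockouts minus controls, Benjamini-Hochberg over all tested genes, threshold 0.05). SE is moderated. Tests were checked on simulated data with a fixed noise level. The planted changes were larger than the galectin changes of the main fit, so changes of galectin size were not checked. Alternatives included other scalings, filters and priors and a lowess correction for GC content and length. Members and lists were chosen with earlier results of these data known. Named genes were the members, other galectin genes above 0, checks (S100a4, Vim, Ptprc), in each list the genes passing limma or else the 2 of mean RPKM at least 1 with the largest change and groups apart, and the 3 nearest profiles. Of the genes so chosen, 2 are not reported here. The lists were other galectins, glycan enzymes, sialyltransferases, galectin-binding glycoproteins, damaged-lysosome partners, macrophage, T cell, keratinocyte, luminal and mesenchymal markers and interferon-stimulated genes. Python 3.11.15 was used for other steps.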

Additional observations from a re-analysis of the deposited data

Results flagged for a closer look

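In RPKM as deposited, the edited lines moved in opposite directions from both controls for Lgals1. Its level was above both controls in the exon 3 knockout and below both in the exon 2 knockout, and the log2 ratio of exon 3 over exon 2 was 0.74. The difference was not tested, since each knockout has 1 library. The order held after median ratio scaling but not after the GC and length correction, where the exon 3 knockout lay between the controls. It was also lost after quantile normalization, where both knockouts lay below both controls. The exon 3 knockout was 1.14 times the vector control, which was itself 1.33 times the parental line.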

How the results depend on the processing

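Of the members, Lgals7 and Lgals8 had a negative change under all alternatives run in which they were tested, and the Lgals1 difference moved most under quantile normalization, to -0.485, which sets its rank of 1 in the controls and 2 in the knockouts to fixed values. Quantile normalization also moved the median of all genes from -0.08 to 0.04. Leaving out 1 library gave -0.351 to 0.393 for Lgals1, -0.667 to 0.29 for Lgals3 (0.244 without the vector control and 0.29 without the exon 2 knockout), -1.227 to -0.522 for Lgals8 and -1.465 to -0.658 for Lgals7.

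limma called 2 genes, but 1 with a pseudocount of 0.1, 1 after quantile normalization, 32 with a filter at mean RPKM 5 and 285 with a robust prior, and the cause was not tested. It called 0 after median ratio scaling (2177 at an unadjusted p under 0.05), 0 without a filter (2132) and 0 after the GC and length correction (1426). Count models on the recovered reads are left out, since the deposited values are RPKM. Leaving out 1 library gave 3 to 788 calls, with the lone library of a group assumed to vary as the other group does. At 3-fold in place of 2-fold, 330 genes differed between the controls, against 927, and 102 between the knockouts, against 543.

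The median of galectin-binding glycoproteins was 0.136 after the GC and length correction. Leaving out 1 library, it ran from -0.694 to 0.276, and medians ran from -0.382 to -0.163 for other galectins, -0.342 to -0.008 for glycan enzymes, -0.386 to 0.118 for sialyltransferases, -0.461 to 0.173 for damaged-lysosome partners, -0.722 to 0.029 for mesenchymal markers and -1.583 to 0.109 for interferon-stimulated genes. No paired analysis was possible because the labels give no replicate numbers. Depth limits Lgals7 and Lgals9.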
